A study of Mus musculus with 6 samples.

Results

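The heat shock genes described here are Hsf1, Hspa1a, Hspa1b, Hspa8, Hsph1, Hsp90aa1, Dnajb1, Hspb1, Hspe1 and Bag3. They were taken by symbol from a list drawn up with earlier results of these data known, by a rule that itself uses no value, and all 10 were found among the 21878 genes of the count table. Most code for chaperones, while Hsf1 codes for a transcription factor and Bag3 for a chaperone partner. RNA was sequenced from mouse tissue taken at the Achilles tendon, with 3 libraries per group. The first group is labelled as having had the Achilles tendon amputated, and its libraries are called amputation 1 to 3. The second is labelled sham, and its libraries are called sham 1 to 3. The series title places the comparison in a study of heterotopic ossification after trauma, the growth of bone where none belongs. The labels give no strain, age, allele, agent or time after surgery, nor which animals the replicates are from. The p-values therefore reflect only how far these libraries spread, which may be technical variation.

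Heat shock proteins keep other proteins folded. The transcription factor HSF1 is held inactive by chaperones, is freed when unfolded protein accumulates, and binds heat shock elements, inverted repeats of the letters GAA, in the promoters of chaperone genes. HSP70 proteins bind exposed stretches of a client, J-domain proteins deliver the client and start the ATP cycle, and nucleotide exchange factors such as BAG3 and HSP110 release it. In skeletal muscle BAG3 and small heat shock proteins are known for the upkeep of the contractile apparatus.

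The upstream sequences of Hspa1a and Hspa1b, the stress-inducible HSP70 genes, are shown because these genes had the largest called changes of the 10 and are near copies of each other. The sequences are from RefSeq on GRCm38.p6 and cover the 250 bases before the gene start on the minus strand of chromosome 17, at chr17:34972157-34972406 for Hspa1a and chr17:34959239-34959488 for Hspa1b. Capitals mark matches to the pair of heat shock units GAANNTTC, which reads the same on both strands.
Hspa1a: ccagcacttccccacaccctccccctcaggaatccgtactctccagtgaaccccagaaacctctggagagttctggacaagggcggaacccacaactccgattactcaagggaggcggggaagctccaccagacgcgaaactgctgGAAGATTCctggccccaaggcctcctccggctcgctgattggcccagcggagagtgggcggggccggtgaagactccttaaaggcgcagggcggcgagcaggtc
Hspa1b: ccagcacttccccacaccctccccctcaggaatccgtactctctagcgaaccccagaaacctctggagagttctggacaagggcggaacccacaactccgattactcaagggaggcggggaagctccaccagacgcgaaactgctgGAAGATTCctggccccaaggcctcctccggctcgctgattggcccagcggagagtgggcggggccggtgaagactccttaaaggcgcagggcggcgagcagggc
The windows differed at 3 of 250 positions, and each held the pair once, starting 104 bases before the gene start. Over the transcripts, 47.1% of all stretches of 100 bases in Hspa1a were also found in Hspa1b, and 49.9% of those in Hspa1b were found in Hspa1a. The way reads of these shared stretches were counted is not given in the sources used here, and the split of reads between the copies is uncertain.

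The same search was made in the RefSeq promoter windows of the other heat shock genes, some of which reach into the annotated gene. A match to GAANNTTC or to the opposite pair TTCNNGAA, on either strand, was found in 6 of the 9 windows that the RefSeq table holds for 7 of the members, and in 12.8% of the 32851 windows of the same length over all genes. Hsph1, with 2 overlapping windows that both hold its match, and Dnajb1 have 2 windows each, and the 6 windows belong to 5 genes. The match of Hsph1 lies within the gene span given below, not before it. The same holds for the whole of 1 Dnajb1 window, at chr8:83608298-83608547. Hspe1 held a run of 4 units, shown with Hspb1 and Hsph1 because the units are arranged differently in each. Capitals again mark the matches, and the excerpts lie at chr1:55088053-55088082 and chr5:135887801-135887830 on the plus strand for Hspe1 and Hspb1 and at chr5:149636351-149636380 on the minus strand for Hsph1.
Hspe1: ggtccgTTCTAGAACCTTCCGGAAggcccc
Hspb1: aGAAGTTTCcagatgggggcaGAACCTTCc
Hsph1: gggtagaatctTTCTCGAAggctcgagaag
The run in Hspe1 matched the motif of 3 units, GAANNTTCNNGAA or its reverse complement TTCNNGAANNTTC, at overlapping positions, and 0.466% of all windows held that motif. No match was found in the windows of Bag3 and Dnajb1. Hsf1, Hspa8 and Hsp90aa1 had no window.

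The libraries held 23916839 to 31346730 counts, and 1 count equalled 0.0319 to 0.0418 CPM (counts scaled to a common library total). Amputation 3 stood apart from amputation 1 and 2 in its share of skeletal muscle RNA. The 30 muscle marker genes took 1.65%, 0.509% and 16.2% of the counts in amputation 1 to 3, and 19.6% to 21.8% in the sham libraries, and none was at 0 in any library. All 30 had negative log2 fold changes and none was called in edgeR (4 with p under 0.05 before adjustment). DESeq2 gave 16 of them an adjusted p and called 10 lower, where 19.1% of all genes were. Without amputation 3 edgeR called all 30 lower, where 29.7% of all genes were. With all 6 libraries edgeR called 20.4% of all genes higher and 12.3% lower, beside the counts of the marker genes that follow. The 10 macrophage genes (10 called higher) took 0.0992% to 0.132% of counts after amputation and 0.0316% to 0.0412% in sham. The cartilage genes (6 of 6 called higher) took 0.188% to 0.922% and 0.00448% to 0.00820%, and the 6 tendon genes (4 called higher, none at 0) took 0.538% to 1.29% and 0.186% to 0.460%. The adipocyte genes (6 of 6 called lower) took 0.0238% to 0.0482% after amputation and 0.104% to 0.165% in sham, and the endothelial genes (4 of 8 called lower) 0.0461% to 0.0721% and 0.0955% to 0.112%. In bulk tissue, fewer cells of a type and less RNA per cell cannot be told apart. The part of these cell types in the results on heat shock genes was not tested beyond the values given for muscle.

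After amputation, Hsf1, the inducible HSP70 genes Hspa1a and Hspa1b, and Bag3 were lower, and the J-domain gene Dnajb1 was higher. The constitutive HSP70 gene Hspa8, Hsph1, Hsp90aa1, Hspb1 and Hspe1 were not called. Of all 14561 genes tested, 12.3% were called lower and 20.4% higher (edgeR's quasi-likelihood test, Benjamini-Hochberg adjusted p under 0.05, n = 3 per group), against 4 and 1 of the 10 heat shock genes. The log2 fold change was negative for 8 of the 10 and positive for 2, and for 51.4% and 48.6% of all genes. Its median was -0.64 over the 10, and -0.02 over all genes tested. All 10 passed the filter on low counts. Without amputation 3, 6 of the 10 were called lower, where 29.7% of all genes were, and 2 higher, where 28.5% were. With the log2 CPM of the muscle markers as a covariate, 1 was called lower (4 at an unadjusted p under 0.05), where 5.24% of all genes were. None was called higher (0 at an unadjusted p under 0.05), where 10.9% of all genes were. The covariate was 13.9, 12.4 and 17.4 in amputation 1 to 3 and 17.6, 17.6 and 17.8 in sham 1 to 3. It thus nearly followed the group, and that fit separates the group from muscle mainly through amputation 3. Of the 30 muscle markers themselves, 10 were called higher and 4 lower in it. With the replicate number as a block, 5 were called lower and none higher, where 17.3% and 21.7% of all genes were.

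Leaving out amputation 1 or 2, or sham 1, 2 or 3, left 2, 3, 2, 2 and 2 of the 10 called lower. Of all genes, 4.68%, 6.05%, 4.55%, 2.95% and 5.4% were lower in those fits. None of the 10 was then higher, where 10.8%, 12.6%, 10.6%, 7.39% and 9.19% of all genes were. Under 10 other scalings, filters and tests, the same 4 genes were called lower each time, where 9.68% to 19.1% of all genes were. None or 1 was higher, where 13.7% to 23.1% were. It was none in 7 of the 10, namely with DESeq2 size factors (19.6% of all genes), limma-voom (20.0%), no filter (15.3%), the 3 FPKM fits (13.7% to 18.3%) and library sizes without muscle and erythroid genes (19.4%).

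**Figure D1:**
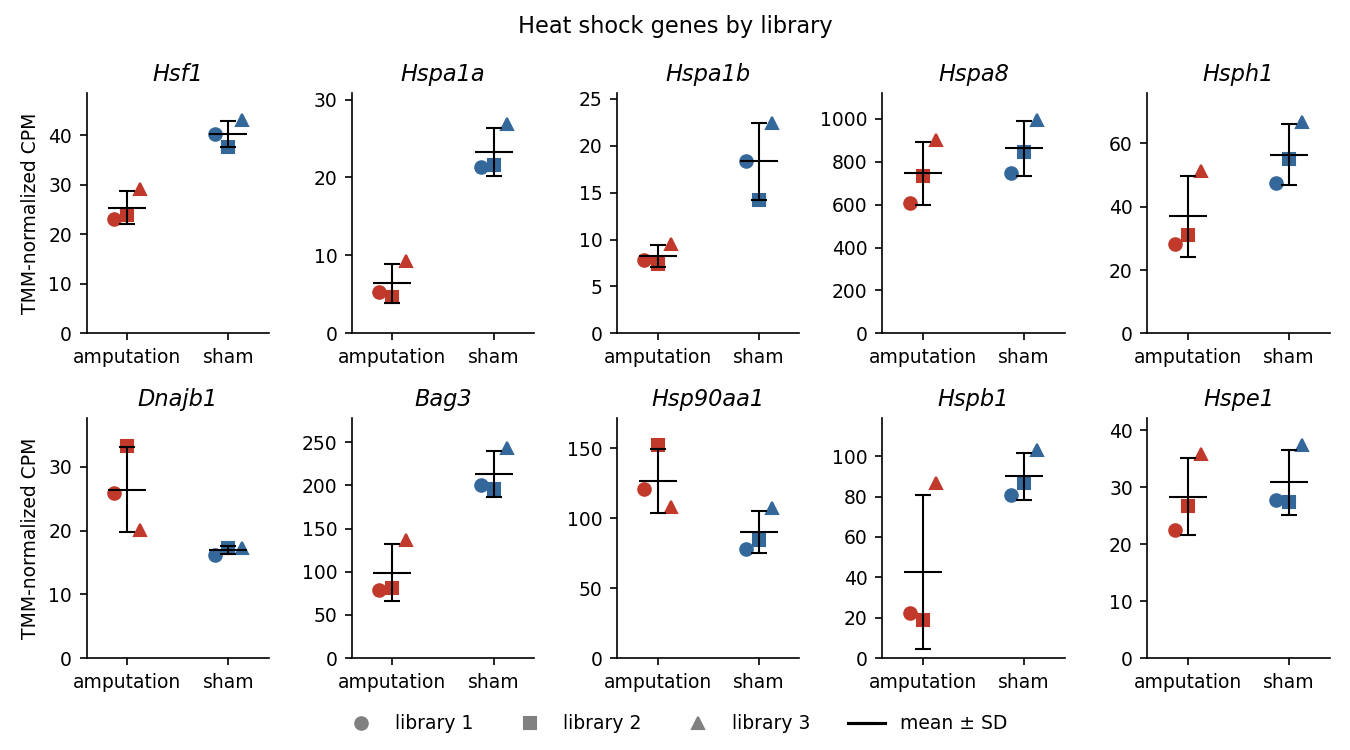
TMM-normalized CPM (y axis, from 0) of the 10 heat shock genes in the 3 amputation libraries (red, left) and the 3 sham libraries (blue, right), with symbols for the library number and bars for the mean ± SD. Every amputation value of Hsf1, Hspa1a, Hspa1b and Bag3 lies under every sham value, and amputation 3 (triangle) lies near the sham libraries for Hspb1, at 86.8 CPM.

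Hsf1, the master regulator of the heat shock response, lies on chromosome 15 at 76477362 to 76501155 (GRCm38.p6). It stood at 23.1, 23.9 and 29.2 CPM in amputation 1 to 3, and at 40.3, 37.6 and 43.0 CPM in sham 1 to 3. All amputation libraries were below all sham libraries, an order that 26.1% of all tested genes shared. Hsf1 fell by 0.66 ± 0.13 on the log2 scale (SE), a 1.59-fold lower level, with edgeR adjusted p = 0.0142. Its call was lost without amputation 1 (-0.60) or any sham library (-0.73 to -0.65), and with the muscle covariate (-0.47, adjusted p = 0.0782). In amputation 3 the log2 ratio to the sham mean was -0.46.

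Hspa1a and Hspa1b code for HSP70 forms that most cells make mainly under stress. They lie on chromosome 17 at 34969359 to 34972156 and at 34956429 to 34959238. Annotated exons of Hspa1a overlap the protein-coding gene Gm20481 on the opposite strand, which is not among the counted genes. Whether its reads entered the Hspa1a level, and the HSP70 share below, was not tested. Hspa1a had 165, 140 and 278 counts in amputation 1 to 3 and 521, 571 and 703 in sham 1 to 3, or 5.32, 4.72 and 9.33 CPM against 21.3, 21.6 and 26.8 CPM. Every amputation value was below every sham value, and amputation 3 was the highest of its group. Hspa1a fell by 1.85 ± 0.28 on the log2 scale (3.60-fold lower, edgeR adjusted p = 0.00719, n = 3 per group). It was the only member called under each of the 18 alternatives that tested it, with log2 values of -2.21 to -1.27. The value nearest 0, -1.27, came with the muscle covariate (adjusted p = 0.00588), a fit that rests mainly on amputation 3.

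Hspa1b stood at 7.83, 7.39 and 9.56 CPM in amputation 1 to 3 and at 18.4, 14.2 and 22.4 CPM in sham 1 to 3. The groups again did not overlap, and sham 2 was the lowest sham library. Hspa1b fell by 1.15 ± 0.21 on the log2 scale (2.22-fold lower, edgeR adjusted p = 0.0108), and its call was lost only with the muscle covariate (-0.91, adjusted p = 0.0537). Because reads cannot be placed with certainty between the copies, both were also summed into a single row before the fit. The sum averaged 14.7 ± 3.65 CPM after amputation and 41.6 ± 6.92 CPM in sham (SD, n = 3 each), and fell by 1.50 ± 0.22 on the log2 scale (edgeR adjusted p = 0.0063). In amputation 1 to 3 the log2 ratio of the sum to the sham mean was -1.66, -1.78 and -1.14, so that it was lower in 3 of 3 libraries.

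Hspa8, which codes for the constitutive HSP70 of the cytosol (HSC70), lies on chromosome 9 at 40801276 to 40805202. It stood at 606, 735 and 899 CPM in amputation 1 to 3 and at 745, 843 and 996 CPM in sham 1 to 3. The groups overlapped, and the log2 fold change was -0.21 ± 0.26 (edgeR adjusted p = 0.552). Per length, Hspa8 was far above its inducible relatives. It had 314 to 406 FPKM (CPM per kilobase of gene length) after amputation and 362 to 457 FPKM in sham, which was 61.4 to 80.9 times the summed FPKM of Hspa1a and Hspa1b after amputation and 25.0 to 31.3 times in sham. Annotated exons of Hspa8 overlap the small nucleolar RNA genes Snord14c, Snord14d and Snord14e on the same strand, which are not among the counted genes. Whether their reads entered the Hspa8 level, and the share below, was not tested.

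The share of the inducible genes in the summed FPKM of Hspa1a, Hspa1b and Hspa8 was lower in every amputation library than in any sham library. Hspa1a and Hspa1b together made up 1.60%, 1.22% and 1.55% of the FPKM of the 3 HSP70 genes in amputation 1 to 3, and 3.85%, 3.09% and 3.58% in sham 1 to 3. The means were 1.46% ± 0.207 and 3.51% ± 0.381 (SD, n = 3 each), a difference of -2.05 percentage points. The exact two-sided permutation test over libraries gave p = 0.1, which is the least that 3 against 3 can give. The muscle markers took 1.65%, 0.509% and 16.2% of counts in amputation 1 to 3 and 19.6% to 21.8% in sham, and their part in this share was not tested.

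**Figure D2:**
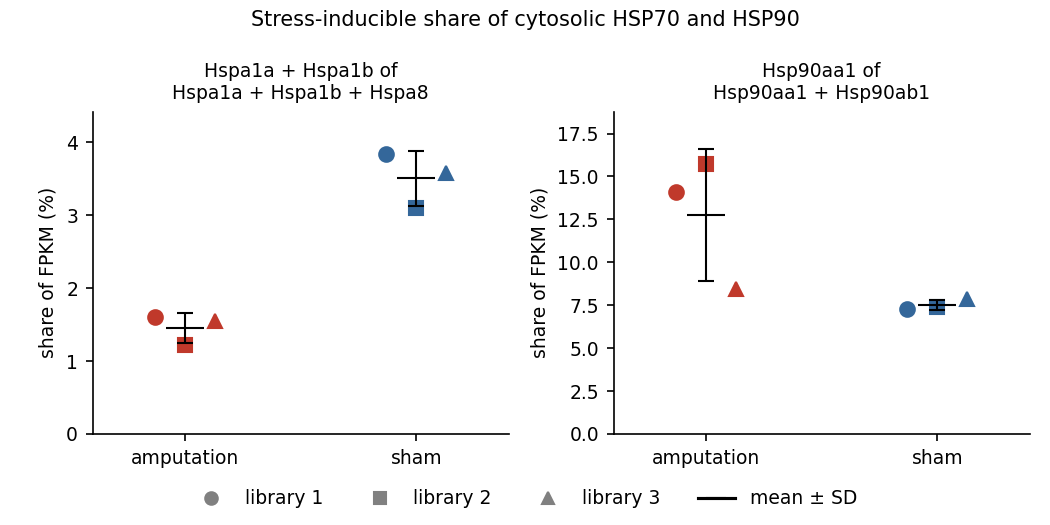
Share of FPKM (y axis, percent, from 0) of Hspa1a and Hspa1b among Hspa1a, Hspa1b and Hspa8 (left panel), and of Hsp90aa1 among Hsp90aa1 and Hsp90ab1 (right panel). The amputation libraries are in red at the left of each panel and the sham libraries in blue at the right, with bars for mean ± SD. The HSP70 share lies at 1.22% to 1.60% after amputation and 3.09% to 3.85% in sham, while the HSP90 share of amputation 3, 8.42%, lies near the sham libraries.

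Of the factors that work with HSP70, Bag3 was lower and Dnajb1 higher. Bag3, a nucleotide exchange factor that hands clients to autophagy, lies on chromosome 7 at 128523583 to 128546981. It stood at 78.9, 81.4 and 137 CPM in amputation 1 to 3 and at 200.3, 195 and 244 CPM in sham 1 to 3. The groups did not overlap, and amputation 3 was closest to sham. Bag3 fell by 1.11 ± 0.26 on the log2 scale (2.15-fold lower, edgeR adjusted p = 0.0215). Without amputation 3 it was called as well (-1.41, adjusted p = 0.000171), but not without any other library (-1.18 to -0.96, adjusted p = 0.0579 to 0.0744) or with the muscle covariate (-0.63, adjusted p = 0.0609).

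Dnajb1, which codes for the J-domain protein HSP40 and is itself a classic HSF1 target, lies on chromosome 8 at 83608175 to 83612653. It stood at 25.9, 33.3 and 20.1 CPM in amputation 1 to 3 and at 16.2, 17.3 and 17.3 CPM in sham 1 to 3. All amputation libraries were above all sham libraries, an order shared by 28.7% of all tested genes, and amputation 3 was the lowest of its group. Dnajb1 rose by log2 0.64 ± 0.19 (1.56-fold, edgeR adjusted p = 0.0461). This call was near the threshold. It was lost with the replicate number as a block (0.61, adjusted p = 0.0507), with limma-voom (0.61) and with the muscle covariate (0.18, adjusted p = 0.471), and without each library other than amputation 3 (0.44 to 0.66). Without amputation 3 it was called at 0.81. Dnajb1 and Hspa1a, both known heat shock targets, lay on opposite sides of the sham mean in all 3 amputation libraries, with log2 ratios of 0.61, 0.98 and 0.25 for Dnajb1 and -2.13, -2.30 and -1.32 for Hspa1a.

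Hsph1, the HSP110 that exchanges nucleotide on HSP70, lies on chromosome 5 at 149616843 to 149636498. It stood at 28.2, 31.1 and 51.4 CPM in amputation 1 to 3 and at 47.5, 55.0 and 66.7 CPM in sham 1 to 3. Only amputation 3 reached into the sham range. Its log2 fold change was -0.61 ± 0.26 and not called (edgeR adjusted p = 0.112). It was called with the replicate block (-0.65, adjusted p = 0.0270) and without amputation 3 (-0.93, adjusted p = 0.00178), and stood at -0.14 with the muscle covariate.

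Hsp90aa1, the stress-inducible HSP90 of the cytosol, lies on chromosome 12 at 110691036 to 110696395. It stood at 121, 152 and 108 CPM in amputation 1 to 3 and at 78.2, 84.8 and 107 CPM in sham 1 to 3. Amputation 3 and sham 3 were nearly level, and in FPKM their order was turned round (36.0 in amputation 3 and 36.4 in sham 3). The log2 fold change of 0.49 ± 0.19 was not called (edgeR adjusted p = 0.0898), except without amputation 3 (0.60, adjusted p = 0.0181). Its constitutive partner Hsp90ab1, named after its values were seen, stood at a log2 fold change of -0.28 ± 0.28 (adjusted p = 0.444). Hsp90aa1 made up 14.1%, 15.8% and 8.42% of the FPKM of both genes in amputation 1 to 3, and 7.28%, 7.39% and 7.87% in sham 1 to 3.

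Hspb1 codes for the small heat shock protein HSP25, which is abundant in muscle. It lies on chromosome 5 at 135887919 to 135889563. It stood at 22.3, 19.1 and 86.8 CPM in amputation 1 to 3 and at 80.6, 86.7 and 103 CPM in sham 1 to 3. Amputation 1 and 2 were far below sham, while amputation 3 lay within the sham range, beside muscle shares of 1.65%, 0.509% and 16.2% of counts. The log2 fold change was -1.08 ± 0.58 and not called (edgeR adjusted p = 0.188). Without amputation 3 it was -2.12 ± 0.15 (adjusted p = 4.7e-05), and with the muscle covariate 0.0059 ± 0.20 (adjusted p = 0.989).

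Hspe1 codes for HSP10, the lid of the mitochondrial chaperonin. It lies on chromosome 1 at 55088148 to 55091317, head to head with the chaperonin gene Hspd1, whose annotated span overlaps it on the opposite strand. Since the strand setting of the counting is not given in the sources used here, reads of the overlap may be shared. Hspe1 stood at 22.5, 26.8 and 35.8 CPM in amputation 1 to 3 and at 27.8, 27.5 and 37.5 CPM in sham 1 to 3. The groups overlapped widely, and the log2 fold change was -0.12 ± 0.21 (edgeR adjusted p = 0.667). The partner Hspd1 averaged 72.3 ± 26.1 CPM after amputation and 120 ± 17.7 CPM in sham, with a log2 fold change of -0.73 ± 0.27 (adjusted p = 0.0765), and was called with the replicate block (-0.78) and without amputation 3 (-1.07, adjusted p = 0.000611).

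**Figure D3:**
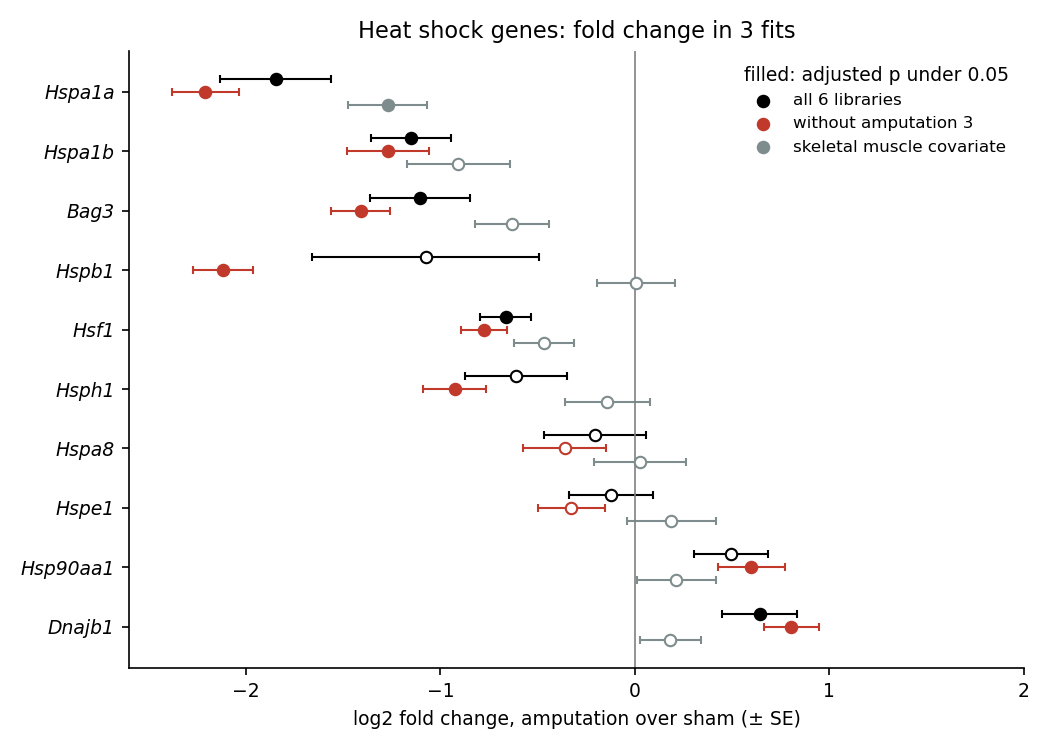
Log2 fold change, amputation over sham (x axis, ± SE), of the 10 heat shock genes (rows, lowest first) with all 6 libraries (black), without amputation 3 (red) and with the skeletal muscle markers as a covariate (grey), with filled symbols for an adjusted p under 0.05. Hspa1a is filled in all 3 fits, at -1.85, -2.21 and -1.27, while Hspb1 moves between -2.12 and 0.0059.

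Per length, Hspa8 had the highest level in every library. Hspb1 (20.4 to 110 FPKM over the 6 libraries) and Bag3 (30.3 to 90.6) followed with overlapping ranges, then Hspe1 (32.0 to 47.2) and Hsp90aa1 (28.1 to 51.5). Hsf1 (9.33 to 16.8), Hsph1 (6.79 to 14.6), Dnajb1 (5.14 to 9.97), Hspa1a (1.63 to 9.26) and Hspa1b (2.54 to 7.71) were the lowest, and neighbours in this order overlapped. In sham, Hspa1a (7.79 to 9.26 FPKM) stood above Dnajb1 (5.14 to 5.42 FPKM) in each library, and after amputation the order was reversed, with Hspa1a at 1.63 to 3.17 FPKM and Dnajb1 at 5.92 to 9.97 FPKM.

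Wider chaperone families were described from lists of 82 further genes in 7 families, of which 79 were tested. Other HSP70 and HSP110 genes were called both ways, with 1 of 11 higher and 3 lower (median log2 fold change -0.01), where 20.4% and 12.3% of all genes were. Hspa13, an HSP70 relative of the secretory pathway, rose by log2 0.60 ± 0.13 (42.5 ± 4.75 CPM after amputation and 28.0 ± 1.88 CPM in sham, SD). Hspa12b, an atypical HSP70 of endothelium, fell by 1.45 ± 0.23 (19.1 ± 5.43 and 52.1 ± 5.02 CPM), beside endothelial markers with smaller changes (-1.04 to -0.30). The edgeR adjusted p-values were 0.0161 and 0.00774. Hspa12b was called with each library left out and with the muscle covariate (-1.02, edgeR adjusted p = 0.0164). The call of Hspa13 was lost without sham 1, 2 or 3 (0.56 to 0.62) and with the muscle covariate (0.44). Without amputation 3, 2 of these 11 were called higher and 5 lower, where 28.5% and 29.7% of all genes were. With the replicate block it was 1 and 5, where 21.7% and 17.3% were.

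Among HSP90 genes, Hsp90b1, the endoplasmic reticulum form GRP94, rose by log2 0.71 ± 0.19 (405 ± 68.1 CPM after amputation and 248 ± 13.2 CPM in sham, edgeR adjusted p = 0.0327). With a single library left out it was called only without amputation 3 (0.77), and not without any other (0.56 to 0.78) or with the muscle covariate (0.50). The mitochondrial form Trap1 stood at -0.88 ± 0.36 (edgeR adjusted p = 0.101). It was called with DESeq2 (-0.89), with the replicate block (-0.99) and without amputation 3 (-1.40). The list of 3 had a median of -0.28.

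All 6 tested small heat shock protein genes besides Hspb1 had negative values (median -1.56), and none was called in edgeR's quasi-likelihood test (3 with p under 0.05 before adjustment). DESeq2, where 23.1% of all genes were higher and 19.1% lower, called 4 of them lower. Cryab, αB-crystallin of muscle and lens, stood at -1.82 ± 0.62 (adjusted p = 0.0645), with log2 ratios to the sham mean of -2.90, -2.87 and -0.78 in amputation 1 to 3. Hspb6 and Hspb7, muscle forms named after their values were seen, stood at -2.35 ± 0.94 and -2.16 ± 0.87. Without amputation 3 all 6 were called lower (29.7% of all genes), with the replicate block 4 (17.3%) and with the muscle covariate 2 (5.24%), Hspb6 (-0.88) and Hspb7 (-0.75).

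Of 18 further J-domain genes, 3 were higher and 2 lower in edgeR (median -0.29), near the 20.4% and 12.3% of all genes. DESeq2 called 4 of the 18 higher and 7 lower, where 23.1% and 19.1% of all genes were. Dnajc10, a disulfide reductase of the endoplasmic reticulum, rose by log2 0.59 ± 0.12 (115 ± 7.99 CPM after amputation and 76.5 ± 1.90 CPM in sham), and Dnajb4, a close relative of Dnajb1, fell by 1.07 ± 0.25 (59.8 ± 19.1 and 125 ± 20.7 CPM). The edgeR adjusted p-values were 0.0137 and 0.0232, and Dnajb4 was not called with the muscle covariate (-0.64) or without any library other than amputation 3 (-1.16 to -0.90). Dnajc10 was not called without amputation 1 or without sham 1, 2 or 3 (0.53 to 0.60). Without amputation 3, 5 were higher and 10 lower (28.5% and 29.7% of all genes), and with the replicate block 3 and 8 (21.7% and 17.3%).

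Of 21 HSP70 and HSP90 co-chaperone genes, Cdc37l1, a relative of the kinase co-chaperone CDC37, was the only gene called in either direction (20.4% of all genes were higher and 12.3% lower), and fell by 0.78 ± 0.14 (73.8 ± 8.59 CPM after amputation and 126 ± 6.55 CPM in sham, edgeR adjusted p = 0.0102). Bag5, a BAG family nucleotide exchange factor, had the smallest p among the positive values (0.45 ± 0.17, adjusted p = 0.0801). Without amputation 3, 13 of the 21 were lower and 1 higher, where 29.7% and 28.5% of all genes were. With the replicate block 4 were lower, near the 17.3% of all genes. DESeq2 called 3 of the 21 lower and none higher, where 19.1% and 23.1% of all genes were. None of 15 chaperonin and prefoldin genes was called (median 0.07; 2 at an unadjusted p under 0.05 in edgeR, 1 lower in DESeq2), and the prefoldin gene Pfdn4 stood at 0.36 ± 0.18. None of 5 tested heat shock factor and HSF-binding genes was called either (0 at an unadjusted p under 0.05 in edgeR, 0 in DESeq2), with Hsf2 at -0.37 ± 0.24 and Hsf2bp at 0.44 ± 0.44. Without amputation 3, when 6 of the heat shock factor list were tested, 1 was lower, Hsf2 (-0.65, edgeR adjusted p = 0.0058), and 3 of the chaperonin and prefoldin genes were, where 29.7% of all genes were.

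**Figure D4:**
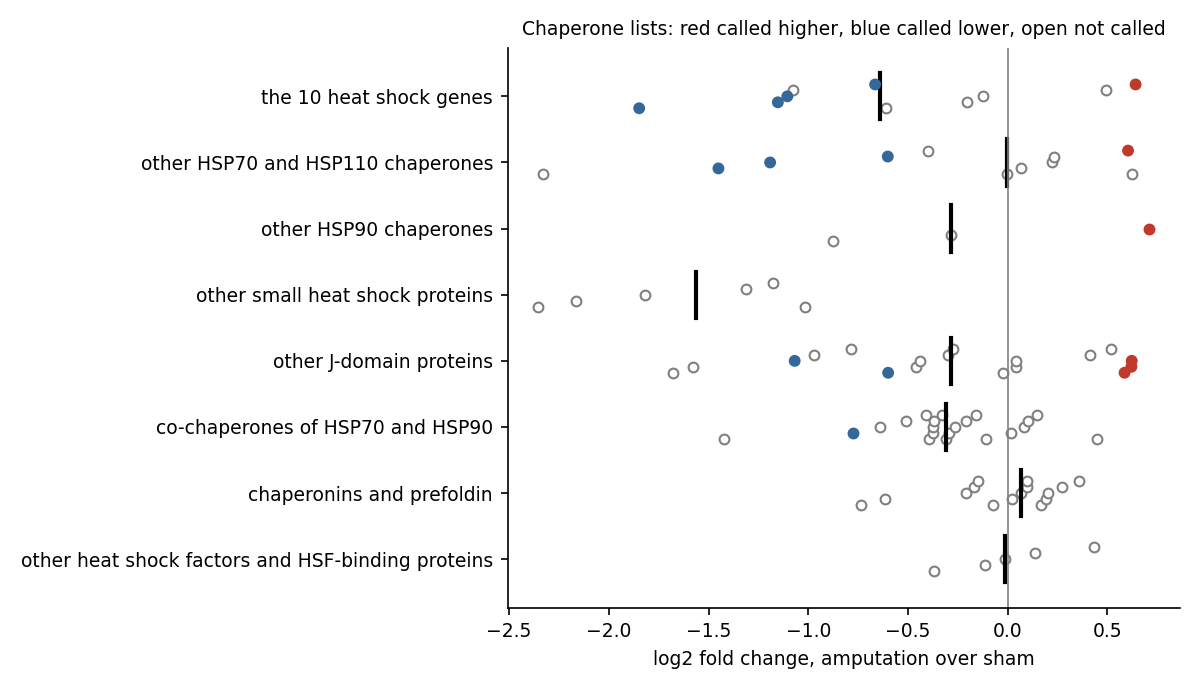
Log2 fold change, amputation over sham (x axis), of each tested gene (points) in the 10 heat shock genes and the 7 further chaperone lists (rows), with red for called higher, blue for called lower, open for not called and a bar for the list median. The 6 small heat shock protein genes all lie left of 0 and are open, while the chaperonin and prefoldin genes lie around 0.

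Immediate early genes respond to tissue handling among other stimuli. Of 14, 1 was lower, Atf3 (-1.15 ± 0.20, edgeR adjusted p = 0.0106), and 13 were not called (median -0.16). Of all genes, 12.3% were lower and 20.4% higher. DESeq2 called 2 of the 14 lower and 1 higher (19.1% and 23.1% of all genes). Without amputation 3, edgeR called 2 lower and 2 higher (29.7% and 28.5% of all genes). The summed list took 0.0657% to 0.113% of counts after amputation and 0.0702% to 0.130% in sham, so that the groups overlapped. Sham 1 was the highest library at 0.130%, above sham 2 (0.0833%) and sham 3 (0.0702%).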

How the data were processed

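Per the labels' protocols, the mirVana kit was used for RNA extraction and a stranded kit with removal of ribosomal RNA for the libraries. Per the submitters' processing notes, Trimmomatic, HISAT2 and GRCm38.p6 were used. The counting program and its strand setting are not given in the sources used here. The authors deposited raw read counts per gene, and a table of FPKM in which the same counts are divided by gene length and library total. The implied length was whole within 0.01 bases for 100% of genes counted in all 6 libraries.

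The count test was run with edgeR 4.0.16 under R 4.3.3 (filterByExpr, TMM, glmQLFTest, group only, common biological coefficient of variation 0.296), with Benjamini-Hochberg adjustment over all 14561 genes kept and a threshold of 0.05. Standard errors were derived from the log2 fold change and its F statistic. The closest libraries, sham 1 and 2, had a mean chi-square over genes of 15.0, above sampling noise. Same-numbered libraries deviated together from their group means (correlations of 0.26, 0.13 and 0.41 for numbers 1 to 3). Amputation 2 correlated more with sham 1 (0.24) than with sham 2, and amputation 1 with sham 2 reached 0.11. By the rule of a correlation over 0.1 in every pair, the replicate block was treated as a pairing, which rests on these correlations and not on the labels. A pairing with numbers 1 and 2 swapped would pass as well, so the rule cannot tell these pairings apart. Deviations from a group mean sum to 0, so some of these correlations are positive even without pairing. Whether the libraries are paired was not tested.

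Alternatives used DESeq2 1.42.0, limma 3.58.1, other scalings and filters, log2(FPKM + 1) and log2(FPKM + 0.1), the replicate block, a muscle covariate, and each library left out. Tables used Python 3.11.15 (pandas 2.3.3, scipy 1.17.1). The heat shock genes, the lists and the tests were chosen with earlier results of these data known. All 10 heat shock genes are named, and of each further list the gene with the smallest p in each direction. Of the marker lists that are not described with the results, 1 of 6 tested erythroid genes was lower (12.3% of all genes). All 6 had negative log2 fold changes (median -1.43), with 5 at an unadjusted p under 0.05 in edgeR. DESeq2 called 5 of them lower (19.1% of all genes). All 6 were called lower without amputation 3 (29.7%) and with the replicate block (17.3%), and none with the muscle covariate (5.24%). None of 4 tested keratinocyte genes was called (0 at an unadjusted p under 0.05 in edgeR, 0 in DESeq2).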

Additional observations from a re-analysis of the deposited data

How the results depend on the processing

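The 4 lower calls among the heat shock genes (Hsf1, Hspa1a, Hspa1b and Bag3) held with DESeq2 size factors, upper quartile scaling, DESeq2, limma-voom, both other filters, the 3 FPKM fits, the replicate block and library sizes without muscle and erythroid genes. With the muscle covariate 1 was left, Hspa1a (4 were lower at an unadjusted p under 0.05). With each library left out, 2 to 6 were lower and 0 to 2 higher, and Hspa1a and Hspa1b were lower each time. The single higher call, Dnajb1, became 0 with DESeq2 size factors, limma-voom, no filter, each FPKM fit, the replicate block, the muscle covariate, and library sizes without muscle and erythroid genes (0 to 2 at an unadjusted p under 0.05). The replicate block also gained Hsph1, and of the further genes named Trap1, Cryab, Hspb6, Hspb7 and Hspd1, and changed no other call among the genes tested one by one.

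Over all genes, 2968 were higher and 1789 lower. Leaving out a library gave 1091 to 4212 higher and 436 to 4392 lower, the most without amputation 3 and the fewest without sham 2. The muscle covariate gave 1593 and 763, and DESeq2 called 2776 lower. Among the genes tested one by one, signs changed only for genes not called in the edgeR fit of all 6 libraries with group only. Of the 30 muscle markers, all negative in that fit, 19 were positive with the muscle covariate. With the muscle covariate Hspa8 stood at 0.026, Hspb1 at 0.0059, Hspe1 at 0.19, Hsf2 at 0.14 and Hsp90ab1 at 0.072. Hspe1 stood at -0.33 to 0.020 with a library left out, positive without amputation 1 (0.020) or sham 3 (0.0070). The inducible HSP70 share differed by -2.68 percentage points when counts were used in place of FPKM, and by -2.25 to -1.88 with a library left out. Why these values moved was not tested beyond the settings named.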

Other observations

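Chaperones of the further lists that work in the endoplasmic reticulum had mostly positive values, a grouping made after the values were seen. Of 9 such genes (Hspa5, Hspa13, Hyou1, Hsp90b1, Dnajb9, Dnajb11, Dnajc1, Dnajc3 and Dnajc10), 5 were called higher and none lower, and 8 had a positive log2 fold change (median 0.60). Among all genes tested, 20.4% were called higher. The group leaves out Dnajb12 (-0.27 ± 0.18) and Dnajb14 (0.04 ± 0.10), J-domain genes of the endoplasmic reticulum membrane that were not called. Hspa5, the lumenal HSP70 known as BiP, stood at 0.62 ± 0.26 (edgeR adjusted p = 0.108) and was called without amputation 3 (0.77). Without amputation 3, 7 of the 9 were called higher, where 28.5% of all genes were. With the muscle covariate 1 was, near the 10.9% of all genes.

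Chaperones of the mitochondrial matrix, grouped in the same way, had negative values. Of Hspa9, Trap1, Hspd1, Dnaja3 and Hspe1, all 5 had negative values (median -0.88), as did 51.4% of all genes, and 1 was called lower (12.3% of all genes), Hspa9, the mitochondrial HSP70 (-1.19 ± 0.35, edgeR adjusted p = 0.0441). Of the 5, 4 were called lower without amputation 3 (29.7% of all genes), 4 with the replicate block (17.3%) and 4 with DESeq2 (19.1%). With the muscle covariate none was (5.24% of all genes), with a median of -0.19, and Hspe1 was positive (0.19).

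The balance of the inducible HSP70 copies did not overlap between the groups. Hspa1a made up 40.5%, 39.1% and 49.5% of the summed FPKM of Hspa1a and Hspa1b in amputation 1 to 3, and 53.7%, 60.4% and 54.6% in sham 1 to 3 (exact two-sided permutation p = 0.1, which is the least that 3 against 3 can give). How reads of shared stretches were split between the copies is not given in the sources used here.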
